A study of Mus musculus with 37 samples.

Results

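Genes of the node and notochord were followed in RNA-seq libraries of mouse tailbud tissue. They are Shh, Noto, Foxa2, Foxj1, Chrd and Nog, chosen by symbol from the table of raw counts, and all 6 were found among its 35542 genes. The tissue came from 37 embryos at embryonic day 8 to 8.5 with 6 to 11 somites, 1 library per embryo. The question asked here was how these genes behaved as somites were added and whether they differed in embryos without maternal SMCHD1, an epigenetic repressor that takes part in X inactivation and imprinting.

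The node is a small pit in the gastrulating embryo, and its cells give rise to the notochord, the rod that signals to the overlying neural tube and the somites. Noto and Foxa2 are transcription factors of these cells, and Foxj1 switches on the programme for the motile cilia that drive leftward flow in the node. Shh is a signal secreted by the notochord that patterns the floor plate and the somites, whereas Chrd and Nog encode secreted proteins that bind BMP ligands and block their signalling. Foxa2 and Shh are also transcribed in embryonic endoderm.

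The 21 Smchd1wt embryos carried the genotype Smchd1 fl/+ and served as controls, and the 16 Smchd1matΔ embryos were Smchd1 del/+. All were F1 embryos of C57BL/6 and Cast parents. The maternal deletion was made by an MMTV-Cre transgene, which acts in the oocyte, so that Smchd1matΔ embryos lacked the oocyte supply and the maternal allele but kept an intact paternal allele. There were 4 Smchd1wt and 4 Smchd1matΔ embryos at 6 somites, 4 and 3 at 7, 3 and 2 at 8, 3 and 2 at 9, 4 and 3 at 10, and 3 and 2 at 11 somites. By the labels 13 Smchd1wt embryos were female and 8 male, and 11 Smchd1matΔ embryos were female and 5 male. Sex was not balanced over the groups. All embryos at 6 somites and the Smchd1matΔ embryos at 8 and 9 somites were female, and every other group held both sexes. Per the study's methods the tissue was cut a short way behind the last formed somite, and the node lay within it.

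Total counts ranged from 916444 to 80579115 per library (median 12845991). The shallowest library was Smchd1matΔ replicate 3 at 6 somites, and replicates 1 and 2 of the same group were rich in counts at a ribosomal RNA locus. Smchd1 itself was at 105 to 202 CPM (counts per 1000000 counts of the scaled library) in Smchd1wt and at 64.6 to 113 CPM in Smchd1matΔ embryos. Tailbud markers were present in every library, with T at 102 to 360 CPM and Cdx2 at 227 to 431 CPM. Of 7 markers of formed somites Pax1 was at 0 in every library, and Meox1, the highest, had a median of 3.14 and a maximum of 39 CPM. Their sum was highest, at 52.8 and 15.2 CPM, in Smchd1matΔ replicates 2 and 1 at 6 somites, the libraries rich in ribosomal RNA counts. With 6 to 8 somites its median was 4.66 CPM in Smchd1matΔ embryos. In Smchd1wt embryos of these stages the median was 2.82 CPM and the maximum 6.98 CPM.

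Promoter sequences were taken from RefSeq (GRCm38.p6), where 3 of the 6 genes had an entry (Noto, Foxa2 and Chrd, but not Shh, Foxj1 or Nog). The 250 bases before the annotated start are shown for Noto, which rose with somite number, and for Foxa2, which did not pass the test. Noto lies on chromosome 6 from 85423886 to 85428877 on the plus strand, and the window shown is chr6:85423636-85423885. Foxa2 lies on chromosome 2 from 148042877 to 148046969 on the minus strand, and its window, chr2:148046970-148047219, is written along the minus strand.
Noto: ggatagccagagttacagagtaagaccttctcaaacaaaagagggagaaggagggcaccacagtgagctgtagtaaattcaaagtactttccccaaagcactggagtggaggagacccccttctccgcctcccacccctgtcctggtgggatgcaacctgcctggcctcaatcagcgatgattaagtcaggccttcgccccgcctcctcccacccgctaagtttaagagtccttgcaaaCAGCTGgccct
Foxa2: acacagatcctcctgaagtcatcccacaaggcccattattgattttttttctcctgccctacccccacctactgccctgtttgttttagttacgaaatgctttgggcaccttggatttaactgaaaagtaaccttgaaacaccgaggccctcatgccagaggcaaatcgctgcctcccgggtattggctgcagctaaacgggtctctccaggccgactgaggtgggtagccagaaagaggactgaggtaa
The Noto window had a GC content of 54.8%, the Foxa2 window 50.8% and that of Chrd (chr16:20732877-20733126, plus strand, not shown) 78%. Each was searched on both strands for a forkhead core (TGTTTAC), a T-box site (GGTGTGA), a TEAD site (GGAATG), a Gli site (TGGGTGGTC) and an E-box (CAGCTG), and none of these 5 motifs is part of another. The Noto window held the E-box letters once, shown in capitals, and none of the other motifs. The windows of Foxa2 and Chrd held none of the 5. Of 27025 promoters of the same length, 3.09% held the forkhead letters, 3.31% the T-box letters, 12.6% the TEAD letters, 0.211% the Gli letters and 12.8% the E-box letters. Such a match describes the letters alone, and binding was not measured.

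Per kilobase of exon, median levels over the 37 embryos were 5.59 CPM for Shh, 4.35 for Noto, 4.15 for Foxa2 and 3.81 for Nog. Chrd was lower, at 0.67 CPM per kilobase, and Foxj1 lowest, at 0.214. In the order of these levels Shh, Noto, Foxa2 and Nog overlapped widely between embryos. Shh ranged from 2.03 to 10.5 CPM per kilobase, Noto from 1.05 to 8.54, Foxa2 from 1.95 to 7.91 and Nog from 1.47 to 8.2, while Foxj1 at most reached 0.682 and Chrd 1.13.

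Counting error was large for several of these values. Over all libraries Shh had 8958 counts, Foxa2 5491, Noto 4223, Nog 3484, Chrd 2315 and Foxj1 333. In the shallowest library the 7 Noto counts gave 7.72 CPM, with an exact 95% Poisson interval of 3.1 to 15.9 CPM that covers counting error only. Foxj1 had no count in that library, where 3 counts would have been 3.31 CPM. It did not pass the filter on low counts in the fit over all embryos and entered 3 fits, those of the slope in Smchd1matΔ embryos and of the genotypes at 9 and at 11 somites.

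Shh and Noto rose as somites were added. In one fit over both genotypes, added after the values of the separate genotypes had been seen, Shh rose by 0.18 on the log2 scale per somite (SE 0.047, 95% interval 0.09 to 0.28, adjusted p = 0.00458, edgeR's quasi-likelihood test with Benjamini-Hochberg adjustment). Noto rose by 0.20 per somite (SE 0.046, interval 0.11 to 0.29, adjusted p = 0.00189). Of the 5 members tested these 2 passed the threshold, both rising, where 19.3% of all genes passed it in either direction and 9.73% rose. The 3 others gave slopes of 0.06 (Nog, adjusted p = 0.36), −0.02 (Foxa2, 0.67) and −0.06 (Chrd, 0.24). The median slope was 0.06 over the 5 members and −0.0019 over the 14733 genes tested. Both calls held in each of 46 alternative fits of these same embryos, with adjusted p-values of 0.00046 to 0.0166 for Shh and 0.000213 to 0.014 for Noto. Of these fits 37 left out 1 embryo each, and the fit without the shallowest library repeats 1 of them.

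Noto, a homeobox gene of the node and early notochord, was at 4.35, 7.34, 6.46 and 6.01 CPM in the Smchd1wt embryos with 6 somites. It was at 5.42, 4.28, 4.35 and 2.73 CPM with 7 somites and at 3.09, 3.56 and 6.64 CPM with 8. Up to this stage no Smchd1wt embryo exceeded 7.34 CPM. With 9 somites Noto was at 7.68, 7.46 and 10.5 CPM, with 10 somites at 1.68, 8.81, 8.46 and 10.9 CPM, and with 11 somites at 10.8, 13.5 and 6.96 CPM. Of these 10 later embryos 8 lay above every earlier one, 1 lay among them and 1, replicate 1 at 10 somites, lay below all of them. The later mean was 1.76 times the earlier one in Smchd1wt embryos. 

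In Smchd1matΔ embryos Noto was at 4.35, 6.06, 7.72 and 10.4 CPM with 6 somites, at 5.28, 6.04 and 4.02 CPM with 7 and at 6.91 and 9.17 CPM with 8. It was at 5.56 and 12.6 CPM with 9 somites, at 10.5, 11 and 13.7 CPM with 10 and at 9.13 and 9.15 CPM with 11. The 2 windows overlapped here, 4 of the 7 later embryos lying above every earlier one, and their means stood in a ratio of 1.54. 

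Shh, the notochord's secreted signal, was at 6.13, 8.65, 12.6 and 17.2 CPM in the Smchd1wt embryos with 6 somites, at 5.77, 12.5, 15.3 and 6.27 CPM with 7 and at 8.34, 22.1 and 18.9 CPM with 8. It was at 20, 24.6 and 19.4 CPM with 9 somites, at 7.21, 17.5, 20.4 and 22.3 CPM with 10 and at 20.3, 16.8 and 17.9 CPM with 11. The earlier embryos were spread widely, and 9 of the 10 later ones lay above their median, although 2 alone lay above all of them. In Smchd1matΔ embryos Shh was at 7.14 to 20.3 CPM (median 12.1, n = 9) with 6 to 8 somites and at 14.3 to 30 CPM (median 17.1, n = 7) with 9 to 11, and each of the 7 later embryos exceeded the earlier median. The later mean was 1.53 times the earlier one in Smchd1wt and 1.54 times in Smchd1matΔ embryos.

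**Figure D1:**
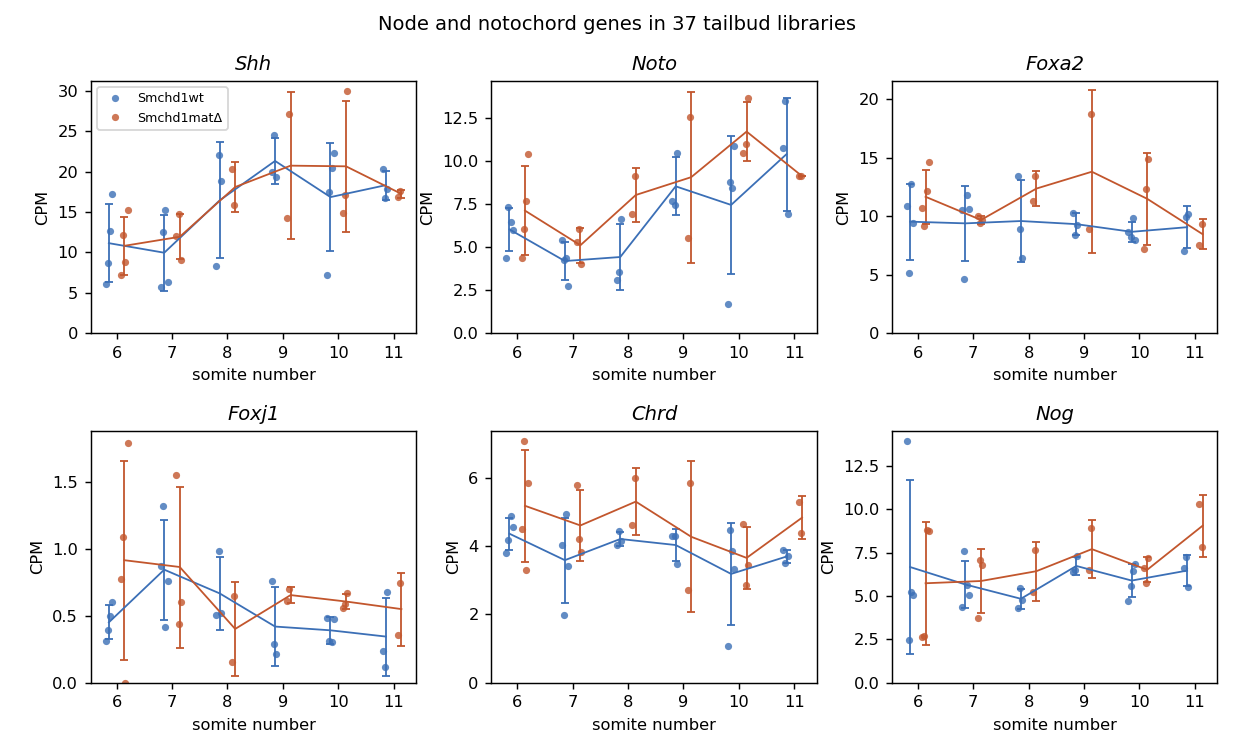
CPM of the 6 genes (vertical axes, one scale per gene) against somite number, with 1 point per embryo and lines and bars for the mean and SD of each genotype and stage (Smchd1wt blue, Smchd1matΔ orange). Later means of Shh and Noto exceed the earlier ones by 1.53 to 1.76 times in both genotypes, with Smchd1wt replicate 1 at 10 somites far below its group, while Foxj1 stays under 2 CPM throughout.

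Neither slope passed the threshold within one genotype. In the 21 Smchd1wt embryos Noto had a slope of 0.20 (SE 0.063, adjusted p = 0.0564) and Shh one of 0.18 (SE 0.069, adjusted p = 0.118). By edgeR 0 of 5 members were called there and 2 had an unadjusted p under 0.05, both rising, where 6.64% of all genes were called and 9.91% rose at the unadjusted threshold. DESeq2 called Noto. Without Smchd1wt replicate 1 at 10 somites, the lowest library for Noto, both genes were called, with adjusted p-values of 0.00541 for Noto and 0.032 for Shh. Noto was also called without replicate 2 at 6 somites and without replicate 3 at 11 somites, with an adjusted p of 0.0489 each.

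In the 16 Smchd1matΔ embryos the slope of Shh was 0.20 (SE 0.059, adjusted p = 0.0756) and that of Noto 0.18 (SE 0.066, adjusted p = 0.147). Again 0 of 6 members were called by edgeR and 2 had an unadjusted p under 0.05, both rising, against 3.07% of all genes called and 10.1% rising at the unadjusted threshold. DESeq2 called Shh. The difference in slope between the genotypes was 0.01 for Shh (interval −0.19 to 0.20) and −0.00056 for Noto (interval −0.18 to 0.18). No member was called for such a difference by edgeR or DESeq2 and none had an unadjusted p under 0.05, where 0% of all genes were called and 3.67% had an unadjusted p under 0.05.

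**Figure D2:**
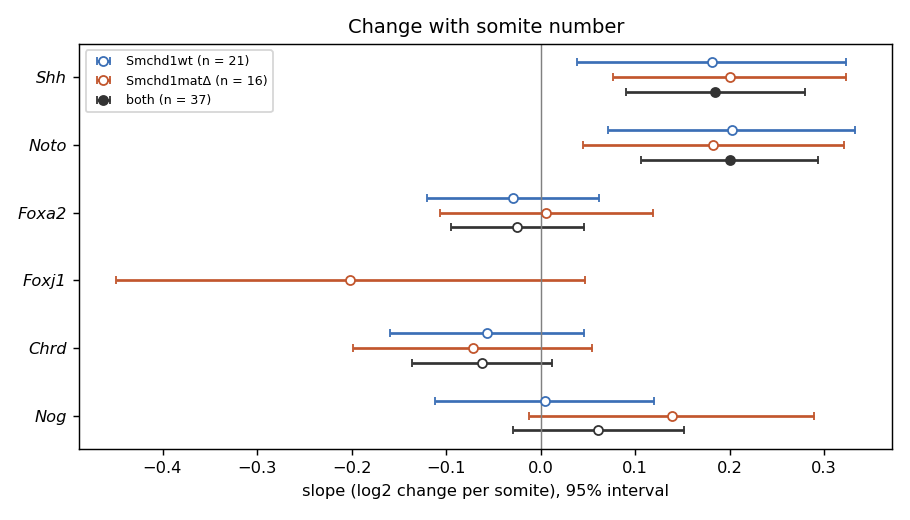
Slope on somite number (horizontal axis, log2 change per somite) with its 95% interval in Smchd1wt embryos, Smchd1matΔ embryos and both together; filled points passed the threshold on the adjusted p-value. The intervals of Shh and Noto lie above 0 in all 3 fits, and the filled points are those of the fit over 37 embryos; Foxj1 has a slope in Smchd1matΔ embryos alone.

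Foxa2, which acts upstream of Shh in the node and notochord, did not pass the test for a slope. In Smchd1wt embryos it was at 4.61 to 13.4 CPM (median 10.5, n = 11) with 6 to 8 somites and at 6.99 to 10.3 CPM (median 8.93, n = 10) with 9 to 11. None of the 10 later Smchd1wt embryos exceeded the earlier median. In Smchd1matΔ embryos it was at 9.19 to 14.6 CPM (median 10.7, n = 9) and then at 7.22 to 18.7 CPM (median 9.34, n = 7), and the window means stood in a ratio of 1.01.

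Foxj1, the regulator of motile cilia, was at 0.311 to 1.32 CPM in Smchd1wt embryos with 6 to 8 somites and at 0.121 to 0.759 CPM with 9 to 11. Of the 10 later embryos 6 lay below every earlier one. In Smchd1matΔ embryos it was at 0 to 1.79 CPM and then at 0.357 to 0.742 CPM. Its slope was −0.20 in Smchd1matΔ embryos (SE 0.12, adjusted p = 0.399) and, in a fit without the filter on low counts over both genotypes, −0.19 (SE 0.076, adjusted p = 0.0811). Most of these values rest on fewer than 10 counts, the median library holding 5.

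Neither antagonist of BMP signalling passed the test. Chrd was at 1.98 to 4.94 CPM (median 4.15) and then at 1.08 to 4.48 CPM (median 3.79) in Smchd1wt embryos, and at 3.31 to 7.08 CPM (median 4.61) and then at 2.71 to 5.84 CPM (median 4.39) in Smchd1matΔ embryos. Nog was at 2.49 to 13.9 CPM (median 5.07) and then at 4.68 to 7.3 CPM (median 6.48) in Smchd1wt embryos, and at 2.64 to 8.82 CPM (median 6.76) and then at 5.74 to 10.3 CPM (median 7.18) in Smchd1matΔ embryos. The highest Nog value, 13.9 CPM, belonged to Smchd1wt replicate 1 at 6 somites, whose group was otherwise at 2.49 to 5.22 CPM. Without this library Nog passed the threshold in the fit over both genotypes, with a slope of 0.11 (adjusted p = 0.0348).

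The exons of Shh overlap those of other genes. Shh lies on chromosome 5 from 28456815 to 28467256 on the minus strand (GRCm38), and 446 of its 2847 exonic bases are shared with 9530036O11Rik and 361 with Gm26894, both on the plus strand. Libraries were made with a stranded or an unstranded kit, and which kit made which library was not given, so reads of the 2 strands cannot be told apart here. Both neighbours rose over both genotypes, 9530036O11Rik by 0.29 per somite (adjusted p = 0.00191) and Gm26894 by 0.17 (adjusted p = 0.00486). Their median levels were 1.18 and 3.28 CPM against 15.9 CPM for Shh. Chrd, on chromosome 16 from 20733127 to 20742384, shares 239 of 6258 exonic bases with Thpo, which did not pass the test (slope −0.02, adjusted p = 0.883).

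Among other genes of the node and notochord, more fell than rose. Of 15 further node and notochord genes 14 were tested over both genotypes, of which 2 rose and 7 fell, with a median slope of −0.10, where 19.3% of all genes were called. The rising genes were Foxa1, a forkhead factor related to Foxa2 that is also among the gut endoderm markers given further on (0.15, adjusted p = 0.00652), and Col2a1, a collagen of the notochord sheath and cartilage (0.12, adjusted p = 0.0153). Lhx1, a LIM homeobox gene of the node and axial mesoderm, fell by 0.68 per somite (adjusted p = 1.35e-05) and Car3 by 0.46 (adjusted p = 2.79e-06). Plet1 fell by 0.38 per somite, Bicc1 by 0.10, Krt8 by 0.14 and Krt18 by 0.12, the last 2 being keratins that are also among those endoderm markers. Lhx1 and Car3 also fell within each genotype, by 0.50 and 0.42 in Smchd1wt and by 0.82 and 0.51 in Smchd1matΔ embryos. The fall of Lhx1 in Smchd1wt embryos was not called with the later window set against the earlier one (adjusted p = 0.0752). The fall of Car3 in Smchd1matΔ embryos was not called in females alone (adjusted p = 0.0931) or without replicate 2 at 7, replicate 3 at 10 or replicate 2 at 11 somites, with adjusted p-values of 0.0533 to 0.0669.

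Among 7 genes of the node crown and left-right signalling 6 were tested, and 1 fell and none rose, a share near the 19.3% of all genes. This was Cfc1, which encodes a co-receptor for Nodal, with a fall of 0.68 per somite (SE 0.052, adjusted p = 7.7e-12) over both genotypes. Cfc1 fell by 0.68 in Smchd1wt and by 0.66 in Smchd1matΔ embryos, and its level over all embryos ranged from 15.1 down to 0.741 CPM. Of 23 genes of motile cilia 10 passed the filter, and Rsph1, a radial spoke component, fell (−0.16, adjusted p = 0.0267) while no gene rose, again no larger a share than that of all genes. Rsph1 was not called without the 2 libraries that had many ribosomal RNA counts (adjusted p = 0.115), without replicate 4 of Smchd1wt (0.0702) or replicate 2 of Smchd1matΔ (0.0553) at 6 somites, in females alone (0.062) or with the window contrast (0.101).

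Of the 17 listed genes of the hedgehog pathway, through which Shh signals, 15 were tested over both genotypes. There were 1 rise and 3 falls, with a median slope of −0.02, beside 19.3% called among all genes. Gli1, a transcription factor induced by hedgehog signalling, fell by 0.13 per somite (SE 0.024, adjusted p = 0.000217), against the direction of Shh. It fell within each genotype too, by 0.11 in Smchd1wt (adjusted p = 0.0419) and by 0.14 in Smchd1matΔ embryos (adjusted p = 0.0381), but these calls were lost in 13 of 21 and in 8 of 16 fits that left out an embryo. Ihh, a related ligand that is transcribed in gut endoderm, fell by 0.18 and Sufu, an inhibitor of the Gli factors, by 0.05 per somite. Gas1, a cell surface protein that binds Shh, rose by 0.09.

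Of 8 genes of the floor plate and ventral neural tube 3 were tested over both genotypes, where 19.3% of all genes were called. Spon1, which encodes a secreted floor plate protein, fell by 0.09 per somite (adjusted p = 0.0132). Nkx6-1, with a median of 0.604 CPM, passed the filter for a slope in Smchd1matΔ embryos alone, where 3.07% of all genes were called. There it fell by 0.77 per somite (adjusted p = 0.017). The summed genes of this list were at 55.2 and 53.2 CPM in Smchd1matΔ replicates 1 and 2 at 6 somites, the libraries rich in ribosomal RNA counts. In Smchd1wt embryos with 6 to 8 somites the sum was 17.5 to 29.2 CPM. Nkx2-2 and Olig2 were at a median of 0 CPM. In the BMP pathway, whose ligands Chrd and Nog bind, 3 of the 21 genes tested rose and 3 fell, where 9.73% of all genes rose and 19.3% were called in either direction. Fst, another secreted antagonist, fell by 0.64 per somite (SE 0.068, adjusted p = 5.57e-09), by 0.69 in Smchd1wt and by 0.57 in Smchd1matΔ embryos. Bmp5 fell by 0.13, whereas Bmpr2, a receptor, rose by 0.11, Id2 by 0.07 and Twsg1, a partner of Chrd, by 0.05 per somite.

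**Figure D3:**
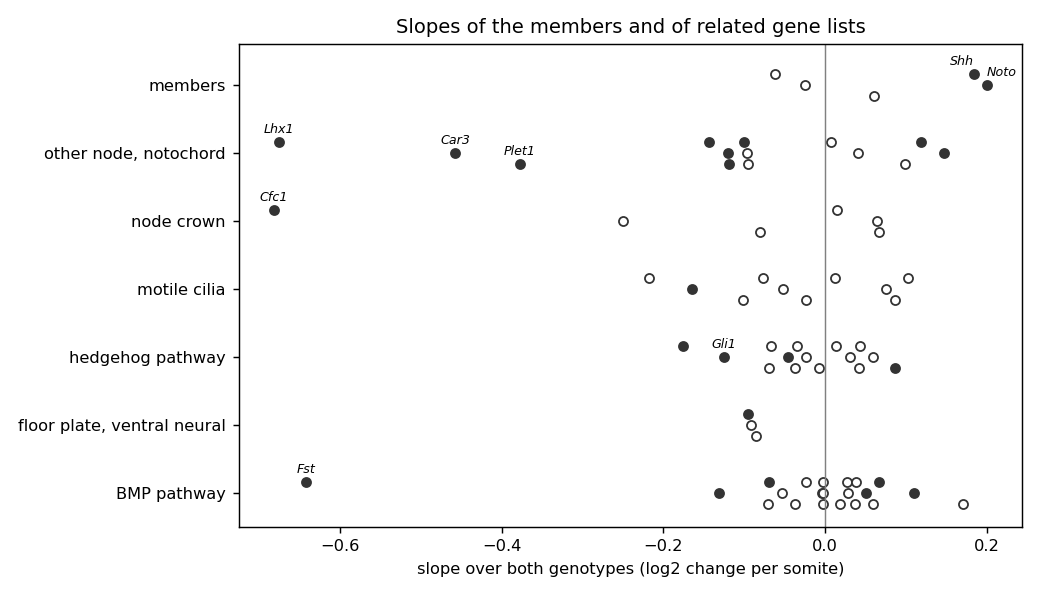
Slope over both genotypes (horizontal axis, log2 change per somite) of each tested gene, by list; filled points passed the threshold on the adjusted p-value, and vertical offsets only separate the points. Shh and Noto stand at 0.18 and 0.20, whereas Lhx1, Cfc1 and Fst lie below −0.6 and no hedgehog pathway gene exceeds 0.09.

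Markers of other cell types also moved with somite number, beside 19.3% of all genes called over both genotypes and 9.73% rising. Of 10 gut endoderm markers 9 were tested over both genotypes, where 6 fell, among them Trh (−0.48), Cdh1 (−0.14) and Sox17 (−0.10), and 1, Foxa1, rose. Their summed level was 597 to 924 CPM (median 725) in Smchd1wt embryos with 6 to 8 somites and 465 to 950 CPM (median 567) with 9 to 11. In Smchd1matΔ embryos it was 636 to 1110 CPM (median 639) and then 517 to 786 CPM (median 629). Of 7 visceral endoderm markers 4 fell, and their summed level had a median of 1420 and then 182 CPM in Smchd1wt embryos and of 1230 and then 152 CPM in Smchd1matΔ embryos. Of 4 markers of primitive blood 2 rose and of 4 of endothelium 3 rose, with slopes of 0.99 for Hbb-y and 0.22 for Tie1. Of 6 neural markers 2 rose, Sox1 (0.40) and Pax6 (0.27), and none fell. The summed blood markers had a median of 105 and then 865 CPM in Smchd1wt and of 109 and then 710 CPM in Smchd1matΔ embryos. Of the 10 tailbud markers Cyp26a1 (0.25) and Wnt5a (0.16) rose and Nkx1-2 (−0.12) fell. The part of these cell types in the rise of Shh and Noto was not tested, and in bulk tissue more cells of a type and more RNA per cell cannot be told apart.

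Across embryos Shh and Noto varied together, with the tailbud markers and against the endoderm markers. These relations were weaker without 1 library, as given further on. After the mean of each genotype and stage was subtracted from the log2 CPM values, the Spearman correlation over 37 embryos was 0.51 between Shh and Noto, 0.43 between Shh and Chrd and 0.42 between Noto and Chrd. Foxa2 gave values of 0.03 to 0.17 with the other members. The summed gut endoderm markers gave −0.63 with Shh and with Noto and −0.56 with Nog, whereas the value with Foxa2 was near 0. The summed tailbud markers gave 0.51 with Noto, as high as the value between Shh and Noto, 0.47 with Chrd and 0.37 with Shh. The summed visceral endoderm markers gave −0.41 with Noto and −0.38 with Shh. These are descriptions of libraries that share depth and scaling between genes, and no test was made of them.

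A single Smchd1wt library, replicate 1 at 10 somites, stood apart in these genes. Noto was at 1.68 CPM there (14 counts, exact 95% Poisson interval 0.919 to 2.82 CPM) against 8.46 to 10.9 CPM in the other embryos of the group, and Chrd was at 1.08 against 3.32 to 4.48 CPM. Both were the lowest values of the 37 libraries. Shh was at 7.21 against 17.5 to 22.3 CPM, while Foxa2, at 8.65 CPM, lay within its group. In the same library the summed tailbud markers were at 793 CPM against 1360 to 1440 CPM, the summed gut endoderm markers at 950 against 527 to 602 CPM and the summed visceral endoderm markers at 3340 against 119 to 553 CPM. Without it the correlation was 0.41 between Shh and Noto, 0.17 between Noto and Chrd and −0.56 between Noto and the gut endoderm markers (36 embryos). The summed tailbud markers then gave 0.34 with Noto, 0.34 with Chrd and 0.23 with Shh, and Shh gave 0.29 with Chrd.

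**Figure D4:**
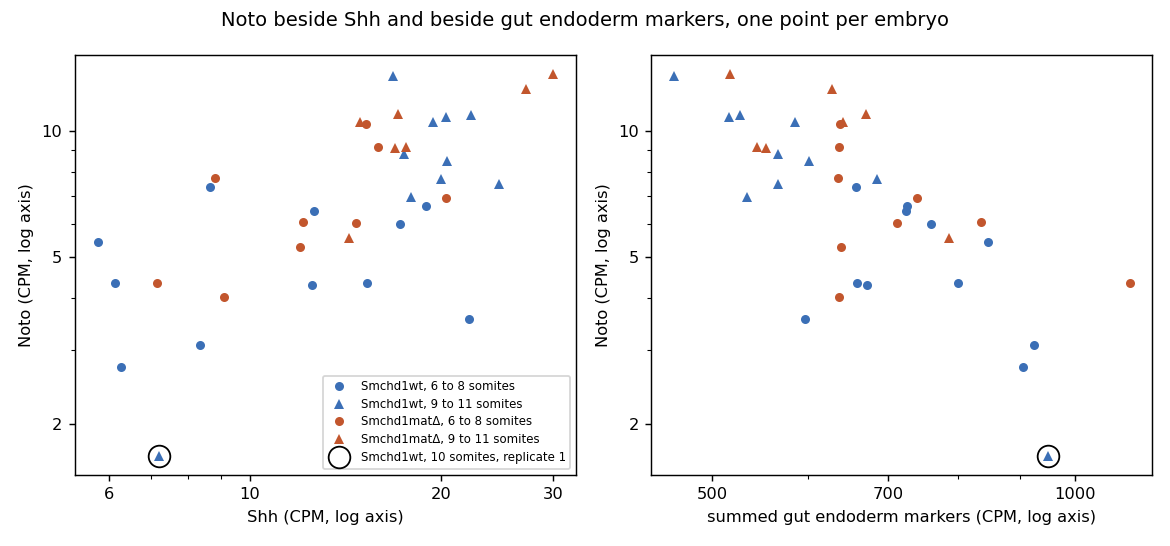
Noto (vertical axes, CPM, log axis) against Shh (left) and against the summed gut endoderm markers (right) in CPM on log axes, 1 point per embryo; the ring marks Smchd1wt replicate 1 at 10 somites. Stage means are not subtracted here. Noto tends to be higher where Shh is higher and lower where the endoderm markers are higher, with exceptions. Smchd1wt replicate 2 at 8 somites has Noto at 3.56 CPM with Shh at 22.1 CPM and endoderm markers at 597 CPM. The ringed library has the lowest Noto value at 950 CPM of endoderm markers.

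No member differed between the genotypes at the adjusted threshold. Over all stages all 5 estimates were on the side of higher levels in Smchd1matΔ embryos, at 0.34 on the log2 scale for Noto (SE 0.16, interval 0.01 to 0.67, adjusted p = 0.864) and 0.27 for Chrd (SE 0.13, interval 0.01 to 0.53, adjusted p = 0.864). Foxa2 was at 0.24 (interval −0.01 to 0.49), Nog at 0.12 (interval −0.21 to 0.45) and Shh at 0.11 (interval −0.20 to 0.42). Smchd1wt replicate 1 at 10 somites, which held the lowest Noto and Chrd values, is part of these estimates. With each embryo left out in turn they were 0.27 to 0.40 for Noto and 0.23 to 0.33 for Chrd. By edgeR 0 of 5 members were called and 2 had an unadjusted p under 0.05, where 0.0136% of all genes were called and 5.66% had an unadjusted p under 0.05. DESeq2 called none. The median over the members was 0.24 against 0.0026 over all 14733 genes tested. The 6 neural markers also had estimates above 0 (0.07 to 0.35, median 0.26), 2 of them with an unadjusted p under 0.05. The median was 0.08 over 10 tailbud markers (−0.09 to 0.33) and 0.01 over 9 gut endoderm markers (−0.05 to 0.30). It was 0.21 over 7 visceral endoderm markers (0.15 to 0.31), 0.26 over 4 primitive blood markers (−0.18 to 0.56) and −0.09 over 4 endothelial markers. The summed neural markers had medians of 61.5 CPM in Smchd1wt and 79.2 CPM in Smchd1matΔ embryos with 6 to 8 somites, and of 71.5 and 74.8 CPM with 9 to 11. Meox1, the 1 somite marker tested, stood at 0.75 (adjusted p = 0.864), and the summed somite markers were highest in the Smchd1matΔ libraries rich in ribosomal RNA counts. The part of these cell types in the estimates was not tested.

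Levels by genotype overlapped for each gene. Noto was at 1.68 to 13.5 CPM (median 6.64) in 21 Smchd1wt embryos and at 4.02 to 13.7 CPM (median 8.42) in 16 Smchd1matΔ embryos. Chrd was at 1.08 to 4.94 CPM (median 4.02) and at 2.71 to 7.08 CPM (median 4.55), and 13 of the 16 Smchd1matΔ embryos lay above the Smchd1wt mean of their stage. For Noto, Foxa2, Foxj1 and Nog 11 of 16 did so, and for Shh 8 of 16.

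With 6 to 8 somites the log2 difference, Smchd1matΔ against Smchd1wt, was 0.41 for Noto (interval −0.02 to 0.84) and 0.35 for Chrd (interval −0.01 to 0.71). By edgeR none of the 5 members was called or had an unadjusted p under 0.05, against 0.0069% of all genes called and 8.13% at the unadjusted threshold. DESeq2 called none and gave 2 at the unadjusted threshold. With 9 to 11 somites the estimate for Nog was 0.27 (SE 0.12, adjusted p close to 1). There too 0 members were called by either tool, 1 had an unadjusted p under 0.05 by edgeR, and the shares of all genes were 0.00671% and 1.75%. Between the 2 windows the genotype effect differed by estimates that lay between −0.13 (Noto) and 0.30 (Nog), and no member was called or had an unadjusted p under 0.05 by either tool, where the shares of all genes were 0% and 3.36%. The median log2 difference over 7 visceral endoderm markers was −0.57 with 6 to 8 and 1.33 with 9 to 11 somites. Over the primitive blood markers tested it was −0.33 and 0.30. None of these markers was called, and their part in the estimates was not tested.

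**Figure D5:**
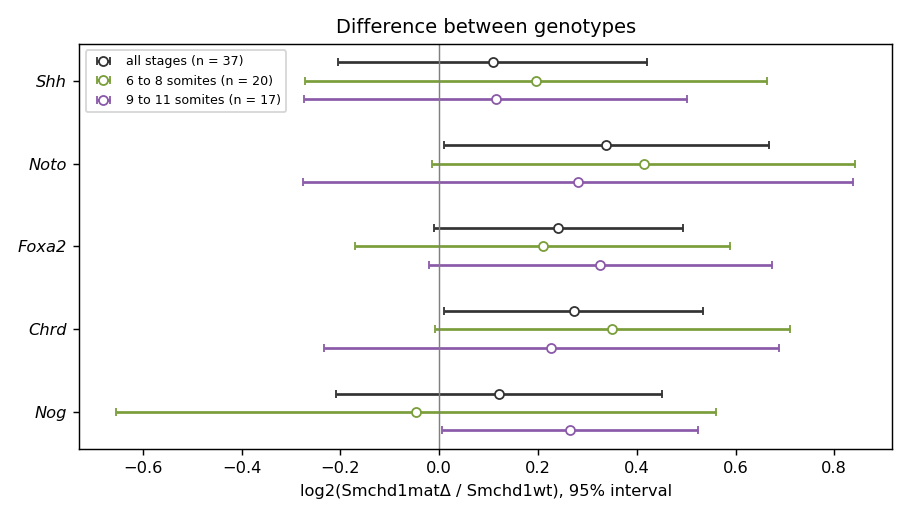
Log2 ratio of Smchd1matΔ to Smchd1wt embryos (horizontal axis) with its 95% interval for the 5 members tested, over all stages and in the windows of 6 to 8 and 9 to 11 somites. No point is filled, since none passed the threshold on the adjusted p-value; the intervals of Noto and Chrd over all stages begin at 0.01.

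At single stages, tested with genotype alone, no member was called by edgeR or by DESeq2, and 0% of all genes were called by edgeR at each stage. Noto with 8 somites was the only case among the members of an unadjusted p under 0.05, with a log2 difference of 0.87 (interval 0.06 to 1.68, adjusted p = 0.999). Its values were 3.09, 3.56 and 6.64 CPM in Smchd1wt and 6.91 and 9.17 CPM in Smchd1matΔ embryos, so the groups did not overlap, but 2 of the 3 Smchd1wt embryos were male and both Smchd1matΔ embryos female. The groups also did not overlap for Chrd with 8 somites, Foxj1 with 10 and Chrd and Nog with 11, in each case with Smchd1matΔ higher. How many of all genes were separated in this way was not counted, so these cases have no baseline and show no genotype effect. Groups of 3 and 2 embryos separate easily, and Foxj1 with 10 somites rested on 4 to 17 counts per library. Cell type markers also had estimates away from 0 with 8 somites, although none was called. The 10 tailbud markers had a median log2 difference of 0.40 (−0.22 to 0.67), 5 with an unadjusted p under 0.05. The 4 primitive blood markers had a median of −2.92, and all 4 had such a p. The part of these cell types was not tested. The shares of all genes with an unadjusted p under 0.05 were 5.54% with 6 somites, 4.83% with 7, 2.81% with 8, 1.15% with 9, 0.56% with 10 and 8.66% with 11.

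The lists of related genes gave no call between genotypes over all stages either. Of the further node and notochord genes 1 of 14 had an unadjusted p under 0.05, of the node crown genes 3 of 6, of the motile cilia genes 0 of 10, of the hedgehog pathway genes 1 of 15, of the floor plate genes 1 of 3 and of the BMP pathway genes 1 of 21, where 5.66% of all genes did. The estimates of the node crown genes ranged from −0.10 to 1.15 with a median of 0.41.

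Genes whose levels followed a member most closely over the 37 embryos, within genotype and stage, were ranked among the 14733 genes tested. For Shh they were Gm26894, which overlaps it (Spearman 0.79), Alkbh5 (0.77) and Jmy (0.77). For Noto they were Cbx5 (0.74), Fam13c (0.73) and Bach2 (0.72). For Foxa2 they were Sorl1 (0.69), Fn1 (0.69) and Rnf213 (0.68), for Chrd Atp10a (0.79), Rab23 (0.76) and Adnp2 (0.75), and for Nog D16Ertd472e (0.72), Gm48604 (0.71) and Uggt2 (0.68). No member stood among the 3 closest genes of another.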

How the data were processed

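According to the labels and the methods, the authors prepared poly(A) libraries from tailbud RNA, trimmed reads with Trim Galore (0.4.4), mapped them to GRCm38.p6 with HISAT2 (2.0.5) and quantified genes in SeqMonk. The deposited table holds the authors' raw read counts per gene, whole numbers that were not normalised. Of its 35591 rows 49 repeated an identifier and were dropped, and 26 names turned into dates were restored. The authors' tables of Hox log2 RPKM values and of called genes (fold changes and p-values) were not used here. Coordinates are those of the deposited table, and exon lengths and overlaps come from GENCODE M21 (GRCm38).

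Counts were filtered with filterByExpr (minimum count 10), TMM-normalised and tested by the quasi-likelihood method of edgeR (version 4.0.16 under R 4.3.3), with Benjamini-Hochberg adjustment over all genes tested, a threshold of 0.05 and two-sided tests. Genotype over all stages and in windows was fitted with stage and sex, single stages with genotype alone, and slopes with sex and, over both genotypes, genotype. CPM used TMM-scaled library sizes, and log2 CPM a prior count of 2. DESeq2 1.42.0, other scalings, no filter, no sex term, females alone, each embryo left out in turn and a replicate block were the alternatives. The fits were also run on simulated counts with the same spread set for all genes, which checks the code and not these results. Nothing says that libraries of a group came from separate litters, so p-values measure the spread between these embryos. Within groups, libraries differed by a chi-square per degree of freedom of 5.12 to 72.3, and none was counted as a repeat. Depth was 3061180 to 80579115 counts in Smchd1wt and 916444 to 30156555 in Smchd1matΔ embryos. Intervals on counts cover counting error only, since reads carry no molecular identifiers.

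The members and the lists were chosen with earlier results of these data known. Named were the 6 members in each comparison, at most 5 called genes per list and comparison (those with the smallest p), the 3 genes most like each member, and genes whose exons overlap a member's. A gene named under one list or comparison was also given in others, and the cell type markers named singly were chosen after their values were seen.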

Additional observations from a re-analysis of the deposited data

How the results depend on the processing

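Over both genotypes Shh and Noto were called in all 46 alternatives, and the shared slope was itself an alternative added after the values had been seen. Across the genotype comparisons 0 of 1321 member values were called under an alternative (lowest adjusted p 0.348).

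The counts of all genes called moved more. Over all stages 2 genes were called, against 1 in females alone and 1 with a replicate block. With 6 to 8 somites the count was 1, against 39 with no filter on low counts, 37 with DESeq2, 2 with no sex term, 0 in females alone, 0 with the replicate block and 0 to 2 when each embryo was left out. With 9 to 11 somites it was 1, against 0 in females alone, 0 with the replicate block and 0 to 1 with embryos left out. For the difference between windows it was 0, against 0 to 2 with embryos left out. At single stages it was 0, against 7 (6 somites), 1 (7), 186 (8) and 172 (11) with no filter, 2 (7), 1 (8) and 14 (11) with DESeq2, and 2 (7), 11 (8) and 5 (9) with the replicate block. Leaving out embryos gave 0 to 7 at 8 somites and 0 to 1 at 9. The slope in Smchd1wt embryos called 1006 genes, against 1802 in females alone and 668 to 1920 with embryos left out. The slope in Smchd1matΔ embryos called 475, against 1127 with DESeq2, 301 without the 2 libraries that had many ribosomal RNA counts, 175 in females alone, 293 with the later window set against the earlier one, and 254 to 638 with embryos left out. For the difference in slope it was 0, against 39 with no filter.

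In Smchd1wt embryos 1 member, Noto, was called with DESeq2, in females alone and with the window contrast, and 0 to 2 members with embryos left out. In Smchd1matΔ embryos 1 member, Shh, was called with DESeq2. The difference in slope between genotypes, near 0 for Shh and Noto, changed sign. For Shh it was −0.031 without those 2 libraries, −0.0045 with no sex term, −9.7e-07 with the replicate block and −0.0085 with the window contrast, and −0.028 to 0.043 with embryos left out. For Noto it was 0.0012 with DESeq2's size factors in edgeR, 0.0047 with library size alone, 0.0048 with DESeq2, 0.0067 without the shallowest library and 0.016 with the replicate block, and −0.034 to 0.058 with embryos left out. The difference between windows for Noto was −0.33 to 0.023 with embryos left out. In females alone the slope over both genotypes was 0.0036 for Foxa2 and 0.0067 for Thpo. The cause of these changes was not tested.

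Over both genotypes Sufu and Spon1 were not called in females alone or with the window contrast, Col2a1 and Id2 not in females alone, and Ihh and Sox17 not with the window contrast. DESeq2 gave Plet1 no adjusted p. Of 16 pairs of libraries with the same stage and replicate number, 4 had deviations correlated above 0.1 (range −0.292 to 0.651). These were replicates 1 and 2 at 9 somites (0.65 and 0.40), replicate 3 at 10 (0.35) and replicate 2 at 8 (0.17). Own numbers correlated best in 6 of 16. Whether libraries with the same number shared a litter or a batch was not tested. Slopes had no fit with this block, which holds 1 library within a genotype and takes up somite number over both, and a block on replicate number across stages was not run. Counts of Foxj1 were too low to enter most fits, and the shallowest library gave it none.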
